A study of Mus musculus with 11 samples.

Results

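The 5-HT-specific regions at matched peak number were the open chromatin regions that stood among the 22879 highest-scoring regions in both ATAC-seq libraries of serotonergic (5-HT) neurons and in none of the 3 libraries of dopaminergic (DA) neurons. They numbered 2358 of the 131942 regions listed for every library, or 1.79%. The members were chosen by the scores of these same 5 libraries, so that their number and their scores are a description, and they support nothing about how the cell types differ. The number 22879 is that of regions with any score in 5-HT replicate 2, the library with the fewest, and taking it in every library gave each an equal number of regions, called kept regions here. The rule turned around, for regions kept in all DA libraries but absent from the kept regions of each 5-HT library, gave 2825 DA-specific regions (2.14% of all regions), which are used for comparison.

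ATAC-seq marks DNA that a transposase can enter, which is mostly promoters and enhancers with few nucleosomes. Serotonergic neurons of the rostral hindbrain are born in ventral rhombomeres from progenitors that express Nkx2-2, and they then switch on Gata2, Gata3, Lmx1b and Fev, which drive the genes for serotonin synthesis (Tph2) and reuptake (Slc6a4). Midbrain DA neurons arise on the other side of the midbrain-hindbrain boundary under Lmx1a, Foxa1, Foxa2 and Otx2, and make dopamine with tyrosine hydroxylase, the product of Th.

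All cells came from mouse embryos at E14.5 and were sorted by fluorescence, and the tissue of several embryos was pooled for each experiment. The 3 DA libraries were made from GFP-positive cells of the ventral mesencephalon of TH-GFP mice, in which the Th promoter drives GFP. The 2 5-HT libraries were made from YFP-positive cells of rhombomeres 1 to 3 of mice that carried a CRE driver and a ROSA YFP reporter. YFP stays on in all cells that descend from a cell with an active driver, and the authors used Tph2 as the marker of the sorted cells. Genotype, dissected tissue and cell type differed together between the groups and cannot be told apart.

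Each region carried a score in each library, 0 where no peak was called, on a scale that the files do not name, so that scores were read as ranks within a library. Scored regions numbered 52861, 93055 and 94351 in DA replicates 1 to 3 and 38772 and 22879 in 5-HT replicates 1 and 2, and the read depth behind them is unknown. The lowest kept score was 5.54, 6.70 and 5.97 in the DA libraries and 4.18 and 2.83 in the 5-HT libraries. The 5-HT libraries thus entered further down their own range of scores, to the last scored region in 5-HT replicate 2. In DA replicate 1 the 5 members nearest to the limit scored 5.52 to 5.53, and the 5 regions on its other side, kept in both 5-HT libraries too, scored 5.54 to 5.55. The same values were 6.68 to 6.69 against 6.70 to 6.71 in DA replicate 2 and 5.95 to 5.97 against 5.97 to 5.99 in DA replicate 3. In 5-HT replicate 1 members and non-members met at 4.18, and in 5-HT replicate 2 the last members scored 2.83 with no scored region beyond them. The limit thus cut through a continuous run of scores in 4 libraries.

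Of the 15548 regions kept in both 5-HT libraries, 10998 were also kept in all 3 DA libraries, 1332 in exactly 2 and 860 in exactly 1, and the members were the 2358 left. Without 5-HT replicate 1 the rule gave 7679 regions and without 5-HT replicate 2 it gave 5794, so that both 5-HT libraries set the count. It was 563 with 10000 regions kept in each library and 1096 with 15000.

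Most members carried a score in DA neurons, weak only in that it lay under the limit of kept regions. A score above 0 was present for 1550 members (65.7%) in DA replicate 1, for 2095 (88.8%) in DA replicate 2 and for 1977 (83.8%) in DA replicate 3. Over all regions these shares were 40.1%, 70.5% and 71.5%. The median score of the members was 4.02, 4.62 and 4.27 in DA replicates 1 to 3, and 4.70 and 3.37 in 5-HT replicates 1 and 2. Where scored, the members had a median rank of 33369, 40925 and 38296 in the DA libraries, against the limit of 22879. Their median score was then 4.48, 4.79 and 4.50, against 5.12, 4.44 and 4.01 over all scored regions. It was thus below that of all scored regions in DA replicate 1 and above it in DA replicates 2 and 3. DA replicate 1, which had the fewest scored regions of the DA libraries, left the largest share of members without a score. The interquartile range was 0 to 4.69, 3.72 to 5.46 and 3.49 to 4.99 in the DA libraries and 4.41 to 5.21 and 3.10 to 3.80 in the 5-HT libraries.

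The members were modest regions in 5-HT neurons too. Their median scores of 4.70 and 3.37 lay under the medians of all kept regions, which were 5.47 in 5-HT replicate 1 and 3.69 in 5-HT replicate 2. Regions kept in all 5 libraries had medians of 6.49 and 4.51 in the 5-HT libraries. The highest member reached 10.8 in 5-HT replicate 1 and 12.0 in 5-HT replicate 2.

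A score was present in all 3 DA libraries for 1498 members (63.5%, 95% Wilson interval 61.6 to 65.4), in 2 for 453 (19.2%, 17.7 to 20.9), in 1 for 222 (9.41%, 8.30 to 10.7) and in none for 185 (7.85%, 6.83 to 9.0). These intervals, like those that follow, cover counting error only. Over all 131942 regions, 34.6% had a score in all 3 DA libraries and 5.09% had no DA score, and of the regions kept in both 5-HT libraries 93.9% had a score in all 3. Among the members with a score in some but not all DA libraries, 406 lacked it in DA replicate 1 alone, 154 had it in DA replicate 2 alone and 63 in DA replicate 3 alone, whereas 5 had it in DA replicate 1 alone. Read by rank, 327 members (13.9%) had their best DA rank within 1.1 times the number of kept regions, 1168 (49.5%) within 1.5 times and 1710 (72.5%) within 2 times. The weak DA scores thus ran from just under the limit to near the bottom of each DA library. Whether a gap sets a group of members apart was not tested. The share with no DA score was 27.9% without 5-HT replicate 1, 16.9% without 5-HT replicate 2 and 12.9% without DA replicate 2, and it was 1.07% with 10000 and 3.29% with 15000 regions kept.

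By the position of its centre, a member was counted as promoter (1 kb upstream to 100 bp downstream of a transcription start site, TSS), exon, intron or intergenic. Intergenic members numbered 884 (37.5%, 35.6 to 39.5), intronic 879 (37.3%, 35.3 to 39.2), promoter 381 (16.2%, 14.7 to 17.7) and exonic 214 (9.08%, 7.98 to 10.3). The DA-specific regions were more often distal, with 49.7% intergenic, 42.2% intronic and 4.14% promoter regions. Regions kept in all 5 libraries lay at promoters in 52.4% of cases and over all regions the promoter share was 9.62%. The members thus stood between the regions shared by all libraries and the DA-specific ones, with a promoter share above that of all regions. The promoter share was 26.3% with 10000 regions kept, 2.92% with every scored region kept and 25.4% with promoters drawn from 2 kb upstream to 500 bp downstream.

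The promoter share followed the DA scores. Of the members scored in all 3 DA libraries 22.3% lay at a promoter, against 6.62% of those scored in 2, 5.86% of those scored in 1 and 2.16% of those scored in none, which is 4 of 185. Members with no DA score were intergenic in 48.6% and intronic in 43.8% of cases. These shares resembled those of the DA-specific regions. Judging absence on the 45758 highest-scoring regions of each DA library left 648 regions, with a promoter share of 4.63%.

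Members were also intermediate in width and base composition. Their median width was 812.5 bp, with an interquartile range of 509 to 1236 bp, against 481 bp for DA-specific regions, 1120 bp for regions kept in all 5 libraries and 340 bp for all regions. Width followed the number of DA libraries with a score, from a median of 319 bp with none to 484.5 bp with 1, 577 bp with 2 and 1056 bp with 3. The central 200 bp had a median GC content of 53.0% in members, 48.5% in DA-specific regions and 63.0% in regions kept in all 5. Median CpG content, as observed over expected, was 0.333, 0.231 and 0.763 in the same order. Members with no DA score had a median GC content of 48.5%, and those scored in 3 DA libraries one of 55.0%.

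The median distance from a member to the nearest protein-coding TSS was 27.2 kb, against 33.8 kb for DA-specific regions and 0.205 kb for regions kept in all 5 libraries. Of the members, 22.6% lay within 1 kb of such a TSS and 864 (36.6%) lay beyond 50 kb. For members with no DA score the median was 49.3 kb. Members were scattered over the genome, with a median of 247 kb to the next member, and 158 (6.70%) had another within 10 kb. Over the autosomes and chromosome X, the share of regions that were members ran from 1.29% on chromosome X to 2.32% on chromosome 9, and none of the 29 regions on chromosome Y was a member. A near-identical copy elsewhere in the genome (at least 95% identity over 90% of the length) was found for 25 members (1.06%), as for 30 DA-specific regions (1.06%).

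The label was checked against cell type markers, each read at the region over its promoter that had a score in the most libraries. Of 6 serotonergic markers, 4, 5 and 4 had a score in DA replicates 1 to 3, and 5 and 2 in 5-HT replicates 1 and 2. Their summed score was 27.7, 29.4 and 25.5 in the DA libraries and 24.7 and 11.1 in the 5-HT libraries. The marker with the highest promoter score was Tph2 in DA replicates 1 and 3 and in 5-HT replicate 1, Lmx1b in DA replicate 2 and Gata3 in 5-HT replicate 2. Of these promoters 3, 2 and 2 were kept in the DA libraries and 4 and 2 in the 5-HT libraries. Sums of scores share no known scale between libraries, and by the number kept the serotonergic promoters overlapped between the groups. Over all 12692 promoter regions, 56.4%, 57.2% and 54.4% were kept in the DA libraries and 60.9% and 61.1% in the 5-HT libraries, and in 5-HT replicate 2 every scored region was kept by construction.

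The Tph2 promoter was kept in all 5 libraries and scored 9.91, 7.59 and 11.1 in the DA libraries and 7.09 and 3.59 in the 5-HT libraries. The Slc6a4 promoter scored 4.80, 6.56 and 3.76 in the DA libraries and was at 0 in both 5-HT libraries. The Fev promoter, at 0 in every DA library, scored 3.88 in 5-HT replicate 1 and 0 in 5-HT replicate 2. Fev was thus open, weakly, in a single 5-HT library, and Slc6a4 was scored in DA neurons alone. The Gata2 promoter scored 0, 3.11 and 0 in the DA libraries and 4.20 and 0 in the 5-HT libraries, and the Lmx1b promoter scored 6.00, 7.62 and 6.01 against 4.44 and 0. The Gata3 promoter scored 6.98, 4.52 and 4.65 in the DA libraries and 5.13 and 7.51 in the 5-HT libraries, where its ranks of 13534 and 1021 were better than the ranks of 13970, 45105 and 36123 in the DA libraries. Gata3 was thus the marker that ranked higher in both 5-HT libraries than in every DA library, and it was no member because DA replicate 1 kept it too. None of the 6 regions read at these promoters was a member. Another promoter region of Gata3, described below, was a member. Since most of these markers had none, 5-HT-specific is used here for the rule alone.

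Of 5 dopaminergic markers, all had a score in each DA library, and 3 and 2 had a score in 5-HT replicates 1 and 2. Their summed score was 41.3, 41.6 and 34.0 in the DA libraries and 12.6 and 6.59 in the 5-HT libraries. Pitx3 had the highest score in all libraries except 5-HT replicate 2, where Nr4a2 had it. The promoters of Th and Lmx1a were at 0 in both 5-HT libraries. Of these promoters 4, 3 and 3 were kept in the DA libraries and 2 in each 5-HT library, with no overlap between the groups. Over all promoter regions the kept share was higher in the 5-HT libraries, as given above.

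Markers of other cells that the sort could hold were read in the same way. Of 15 progenitor and glial markers, 11, 12 and 12 had a scored promoter in the DA libraries and 12 and 11 in the 5-HT libraries, but 4, 2 and 4 were kept in the DA libraries against 9 and 11 in the 5-HT libraries. Their summed score was 60.1, 67.2 and 65.2 in the DA libraries and 56.2 and 41.4 in the 5-HT libraries. The highest scores among them were at Olig1, Hes1 and Vim in DA replicates 1 to 3, Vim in 5-HT replicate 1 and Hes5 in 5-HT replicate 2. Sox10 and Gfap were among those with no promoter region. The regions read at Sox2, Sox9, Olig2, Pdgfra and Nes were members, that of Pdgfra being centred in an intron, that of Nes in an exon and that of Sox9 in the promoter of a lincRNA. More progenitor and glial promoters were thus kept in the 5-HT libraries than in the DA libraries, without overlap in the number. Some, such as Olig1 and Hes1, were kept in most DA libraries too. Over all promoter regions the kept share went the same way without overlap, with 54.4% to 57.2% in the DA libraries and 60.9% and 61.1% in the 5-HT libraries.

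Of 13 GABAergic markers, 9, 11 and 10 were scored in the DA libraries and 8 and 5 in the 5-HT libraries, and 0, 0 and 1 were kept in the DA libraries against 6 and 5 in the 5-HT libraries. Their summed score was 41.4, 49.0 and 42.4 in the DA libraries and 35.2 and 17.1 in the 5-HT libraries. The highest score among them in DA replicate 3 was at Dlx6. The regions read at Gad1, Gad2 and Tal1 were among the members, whereas Slc32a1, the gene of the vesicular transporter of GABA, was at 0 in both 5-HT libraries. More GABAergic promoters were thus also kept in the 5-HT libraries, the direction seen over all promoter regions. Other markers were at 0 there, among them Dlx5 and Sox14.

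The other lists held no member at the promoters read. Of 6 glutamatergic markers, 4, 5 and 5 were scored in the DA libraries and 4 and 1 in the 5-HT libraries, with summed scores of 25.1, 32.9 and 33.2 against 15.7 and 3.00. Slc17a6 had the highest score in each DA library and Grin2b in the 5-HT libraries, where Tbr1 was at 0. Of 6 noradrenergic markers, 0, 2 and 1 were scored in the DA libraries and none in the 5-HT libraries, with Slc6a2 and Phox2a the highest in DA replicates 2 and 3 and summed scores of 0, 6.88, 3.21, 0 and 0. Of 12 vascular and microglial markers, 5, 6 and 5 were scored in the DA libraries and 5 and 1 in the 5-HT libraries, and none was kept in a DA library against 3 and 1 in the 5-HT libraries. Their summed score was 21.4, 24.3 and 20.0 against 21.1 and 3.00, Foxc1, Cldn5, Cldn5, Flt1 and Foxc1 being the highest in turn, and Pecam1, Cx3cr1 and Csf1r had no promoter region. Of the glutamatergic promoters 2 were kept in each DA library and 1 in each 5-HT library, and no noradrenergic promoter was kept in any library. More vascular and microglial promoters were kept in the 5-HT libraries, the direction seen over all promoter regions. Progenitor, glial and GABAergic markers moved with the choice of members, and their part in the result was not tested. No vascular or microglial promoter was kept in both 5-HT libraries, and the part of these cells was not tested either.

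Among the 8 members that ranked best in both 5-HT libraries was chr7:56033564-56033887, an intergenic region 10.6 kb upstream of Zdhhc13, a palmitoyltransferase gene, with 0 in every DA library and 8.20 and 7.53 in the 5-HT libraries. An intronic region of Adamtsl1 at chr4:85887850-85888128 scored 5.23, 6.46 and 5.18 in the DA libraries and 8.51 and 5.33 in the 5-HT libraries. The DA scores of this region were below the limit of each library by the rule, and nearest to it in DA replicate 2.

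An intronic region of Kif5c, which encodes a neuronal kinesin heavy chain, at chr2:49510884-49511733 scored 4.02, 5.15 and 4.28 in the DA libraries and 8.16 and 5.11 in the 5-HT libraries. In Ctnnd2, the gene of delta-catenin, the intronic region chr15:30623358-30623854 scored 0, 0 and 3.46 against 7.28 and 6.14. An intronic region of Agbl4 at chr4:111269639-111270438, nearest to the TSS of Spata6, scored 0, 4.58 and 4.14 against 7.02 and 5.93. These 3 intronic regions varied in the DA libraries from a score in every library to a score in 1. Promoter regions among the leading 8 were those of Ptprg, a receptor tyrosine phosphatase gene, at chr14:13022260-13022746, with 4.73, 4.86 and 4.79 against 7.09 and 6.07, and of Cntnap5a, of the contactin-associated protein family, at chr1:117581167-117581831, with 5.19, 5.83 and 5.11 against 7.05 and 7.03. Both were scored in every DA library.

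Among the 185 members with no DA score, the region near Zdhhc13 ranked best. An intronic region of Hars2 (chr18:36949946-36950086) scored 6.84 and 4.62 in 5-HT replicates 1 and 2, and an intergenic region 5.55 kb upstream of Prkaa1, the gene of a catalytic subunit of AMP-activated kinase, scored 6.87 and 4.41 (chr15:5088164-5088452). An intergenic region nearest to Actbl2, 352 kb away (chr13:111693591-111693731), scored 5.96 and 4.76. A region 43.7 kb upstream of B3gat1, the gene of the glucuronyltransferase that makes the HNK-1 epitope (chr9:26497227-26497995), scored 5.88 and 4.21. Apart from the region near Zdhhc13, these regions ranked lower than the leading members with DA scores described above, which follows because the latter were chosen by rank. The median 5-HT scores of members with no DA score were 4.73 and 3.40. Those of members scored in all 3 DA libraries were 4.68 and 3.37. The other 3 of the leading 8 lay 959 kb from the TSS of Slc16a7 (5.77 and 4.30), in an intron of Hif3a (5.68 and 4.63) and 6.43 kb upstream of Kif21a (5.55 and 5.72).

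By nearest TSS the members belonged to 1915 protein-coding genes, of which 1582 had 1 member, 253 had 2, 60 had 3 and 20 had 4 or more. The DA-specific regions belonged to 2359 genes, and 529 genes had both kinds, which is 27.6% of the genes of members and 22.4% of the genes of DA-specific regions. Nr2f2, the gene of an orphan nuclear receptor, was nearest to 6 members of 38 regions and Sox2, a neural progenitor factor gene, to 6 of 92, neither with a DA-specific region. Grid1, which encodes a glutamate receptor of the delta type, had 5 members of 64 regions and 2 DA-specific regions. The atypical cadherin gene Fat3 had 5 members of 64 regions and Sesn3 had 5 of 48, with 0 and 1 DA-specific regions. Another 14 of the 20 genes had 4 members each, among them Atxn7l1, Polg, Chd7, Lpp, Kirrel3, Wnt7b, Stim2, Srgap3, Astn2, Zfp36l1, Odz4, Nckap5 and Nr2f1. At Wnt7b, a Wnt ligand gene, these were 4 of 11 regions.

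The 5 members at Fat3 lay from 21.1 to 163 kb from its TSS and were alike in the DA libraries, with 0 in DA replicate 1 and 3.61 to 4.86 in DA replicate 2. The 4 members at Atxn7l1 also scored 0 in DA replicate 1, and the highest of them, in an intron at chr12:34026161-34026691, scored 0, 4.32 and 4.52 in the DA libraries and 7.15 and 4.34 in the 5-HT libraries. Members at Nr2f2 varied more. That at chr7:77482992-77483161, 22.4 kb from the TSS, had no DA score and 5.17 and 3.13 in the 5-HT libraries, while that at chr7:77490712-77491546 scored 5.48, 6.24 and 4.99 against 4.67 and 3.16. The raw scores of the latter were higher in the DA libraries, and only its rank within each library made it a member. At Chd7, a chromatin remodeller gene, the intronic region chr4:8777593-8779924 scored 5.01, 6.66 and 5.52 against 5.83 and 7.0, and its DA replicate 2 score was next to the limit. Of the 4 members at Zfp36l1, a gene of an RNA-binding protein, 2 had no DA score, with 4.86 and 4.98 in the 5-HT libraries at chr12:80820261-80820572 and 4.74 and 3.15 at chr12:80833787-80834121.

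Among the windows of 1 Mb with the most members, that at chr7:86000001-87000000 held 9 members of 98 regions, nearest to Mfge8, Polg, Rhcg and Rlbp1, beside 4 DA-specific regions. In chr7:71000001-72000000, around Klf13 and Apba2, 7 of 97 regions were members, and none was DA-specific. The windows chr12:33000001-34000000, with Atxn7l1, and chr3:145000001-146000000, with Ddah1, held 7 of 107 and 7 of 92.

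Of the 381 promoter members, 338 lay at a protein-coding gene, and of these 300 had a score in all 3 DA libraries and 3 had none. A lincRNA promoter was present for 32. After Ptprg and Cntnap5a the best-ranked were the promoters of Rab27a, a vesicle transport GTPase gene, with 4.95, 5.16 and 5.03 in the DA libraries against 7.0 and 5.12 in the 5-HT libraries, and of Pld1, the gene of a phospholipase D, with 0, 5.25 and 5.63 against 6.67 and 4.69. The promoter of Mtap1b, which encodes a microtubule-associated protein of growing axons, scored 4.52, 5.79 and 3.90 against 6.46 and 4.36. Of these only Pld1 lacked a score in a DA library, DA replicate 1. The promoter of Kcnj10, a potassium channel gene of glia, scored 4.50, 4.83 and 5.15 against 5.42 and 6.32. That of Irx2, a homeodomain factor gene, scored 4.17, 4.67 and 4.27 against 5.29 and 4.50. Also among the leading 20 were Hadh, Aff1, Ablim1, Atp4a, Acot1, S1pr1, Capg, 5530401A14Rik, Zbtb42, Limch1, Zrsr1 and Slc10a6. Of the genes of the hindbrain list used below, Irx2 alone was among the leading 20.

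Lists of genes were then read within 100 kb of each TSS. Over all 22365 protein-coding genes, 4490 (20.1%) had a member and 5476 (24.5%) a DA-specific region in this window. Of 152 listed genes, 39 (25.7%) had a member and 52 (34.2%) a DA-specific region. Of 24 genes of serotonergic identity, 6 (25.0%) had a member and 11 (45.8%) a DA-specific region. The listed genes were thus near the background for members, and more of them had a DA-specific region. The list was not particular to 5-HT neurons. Its genes with a DA-specific region included Foxa2, named above for DA neurons, and Ret, which was also on the DA list. Fev, Gata2, Lmx1b and Nkx2-2 were among them too. Among the 6 genes were Insm1, Nkx2-2, Gata3, Htr1a and Htr1b. Tph2, Slc6a4, Fev, Gata2 and Lmx1b had none.

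The reporter locus Gt(ROSA)26Sor had no member within 100 kb, and Th had 1, an exonic region of Ascl2 37.1 kb upstream that scored 4.97, 6.55 and 4.92 in the DA libraries against 4.76 and 2.85 in the 5-HT libraries.

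At Nkx2-2, which specifies the ventral progenitors of 5-HT neurons, the intronic region chr2:147006355-147007266 had no DA score and 4.24 and 2.97 in the 5-HT libraries. The region chr2:147082325-147082701, in an intron of the antisense gene Nkx2-2as, scored 0, 3.22 and 0 in the DA libraries and 4.22 and 3.39 in the 5-HT libraries. The region chr13:106202125-106202432, 31.5 kb upstream of Htr1a, the gene of the serotonin autoreceptor of the cell body, had no DA score and 4.25 and 3.30 in the 5-HT libraries. These 3 regions were open in both 5-HT libraries and nearly absent from the DA libraries, at scores near the lower limit of 5-HT replicate 1. At Gata3 a promoter region other than the one read as marker, chr2:9809303-9809718, scored 0, 0 and 3.56 in the DA libraries and 5.17 and 3.24 in the 5-HT libraries. The promoter region of Htr1b, the gene of the terminal autoreceptor, at chr9:81525283-81528183 scored 4.80, 5.00 and 4.43 against 4.49 and 3.29. Raw scores overlapped between the groups at both genes, and at Gata3 5-HT replicate 1 alone was above every DA library. At Insm1, a zinc finger factor gene of newborn neurons, the region chr2:146104030-146106432, in an intron of Ralgapa2, scored 4.86, 4.58 and 3.63 against 4.89 and 3.28, and the region chr2:146042966-146043265 scored 3.59, 3.75 and 3.12 against 4.46 and 3.56.

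Of 40 hindbrain patterning genes, 10 (25.0%) had a member and 11 (27.5%) a DA-specific region, both near the backgrounds of 20.1% and 24.5%. Among the genes with a member were En1, En2, Pax8, Irx2, Irx5, Meis1, Meis2 and, through the same region, Hoxd3 and Hoxd4. Egr2, a factor gene of hindbrain segmentation, and the listed Hoxa and Hoxb genes had none. At Meis2, a TALE homeodomain cofactor gene, chr2:115678254-115678810 scored 0, 5.52 and 4.27 in the DA libraries and 7.0 and 3.12 in the 5-HT libraries, and its promoter region chr2:115891052-115893083 scored 4.94, 4.81 and 4.72 against 5.15 and 3.43. At Pax8, chr2:24358637-24359246 scored 0, 3.21 and 0 against 4.51 and 4.09. Irx5 had a member at its promoter, with 3.71, 4.26 and 3.75 against 4.65 and 3.72, and another 4.38 kb downstream, with 0, 5.38 and 4.50 against 4.27 and 4.15. The DA scores of these members lay under the limit by the rule, so that they do not describe the loci as a whole. The region at Pax8 was scored in DA replicate 2 alone among the DA libraries.

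En1 and En2 are expressed on both sides of the midbrain-hindbrain boundary. The member 41.7 kb downstream of En1 scored 5.42, 4.87 and 5.41 in the DA libraries and 4.69 and 2.83 in the 5-HT libraries, at the limit in 5-HT replicate 2. That 9.24 kb downstream of En2 scored 3.73, 5.06 and 3.95 against 4.24 and 3.47. The region shared by Hoxd3 and Hoxd4, chr2:74553946-74554136, scored 0, 5.22 and 3.57 against 4.81 and 3.09. Meis1 had a member with 4.25, 3.70 and 3.78 against 4.32 and 2.90. In each of these members 5-HT replicate 2 was the lowest of the libraries that had a score, and it was also the library with the lowest limit. Raw scores share no known scale between libraries. At En1 both 5-HT libraries were below every DA library in raw score, and at the other members the groups overlapped.

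Of 20 genes of neighbouring hindbrain neurons, 3 had a member, namely Atoh1, Lhx1 and Isl1, and 5 a DA-specific region. The Lhx1 promoter scored 3.86, 3.76 and 4.65 in the DA libraries and 5.52 and 3.07 in the 5-HT libraries, and the Isl1 promoter 4.49, 5.75 and 5.12 against 5.48 and 2.96. Of 20 genes of midbrain DA identity, 7 (35.0%) had a member and 11 (55.0%) a DA-specific region. These members included an exonic region of Aldh1a1 with no DA score and 5.32 and 3.17 in the 5-HT libraries, and a region 28.2 kb upstream of Lmx1a with 3.72, 4.09 and 3.35 against 4.94 and 3.81. The genes of the DA list thus carried members too, although more of them carried DA-specific regions.

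Progenitor and glial genes had a member within 100 kb at 7 of 15 (46.7%) against a background of 20.1%, and a DA-specific region at 4 (26.7%). Olig1 and Olig2 were counted apart although the same 4 members lay near both. The background does not account for the number of regions near a gene. Within 500 kb, 10 of 15 progenitor and glial genes had a member, beside 29 of 40 hindbrain and 15 of 24 serotonergic genes. Their 15 members included 4 at Olig1 and Olig2, bHLH factor genes of oligodendrocyte and motor neuron progenitors. Of these the regions chr16:91263028-91263382, chr16:91304315-91304939 and chr16:91305285-91306374 had no DA score, with 4.25 and 4.74, 4.77 and 3.35, and 4.33 and 3.65 in the 5-HT libraries. The Olig2 promoter scored 0, 4.36 and 4.42 in the DA libraries and 4.73 and 4.27 in the 5-HT libraries. The Olig locus was thus the listed locus with most members that lacked any DA score. At Sox9, a progenitor and astrocyte factor gene, chr11:112672491-112673077, 26.7 kb downstream of the TSS, scored 3.78, 4.78 and 3.99 against 6.59 and 5.86. The Sox2 promoter scored 5.02, 6.27 and 4.11 against 5.21 and 4.04, so that its raw scores overlapped. Slc1a3, a glutamate transporter gene of radial glia, had 3 members, Nes 2 and Pdgfra 1.

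GABAergic genes had a member at 5 of 13 (38.5%) and a DA-specific region at 4 (30.8%). The Gad2 promoter, of a gene for GABA synthesis, scored 5.03, 4.71 and 4.82 in the DA libraries and 4.96 and 3.41 in the 5-HT libraries, and the Gad1 promoter 4.84, 4.45 and 4.12 against 4.60 and 3.19. At Tal1, which specifies GABAergic neurons of the ventral hindbrain, the promoter scored 4.14, 3.67 and 4.04 against 5.00 and 3.65, and chr4:114751537-114752880 scored 5.13, 5.87 and 5.38 against 6.68 and 3.95. At Tal1, but not at Gad1 or Gad2, 5-HT replicate 1 was above every DA library in raw score. Glutamatergic genes had a member at 2 of 6, namely Slc17a8 and Tbr1, and noradrenergic genes at 1 of 6, namely Tfap2b. None of 12 vascular and microglial genes had a member, whereas 6 (50%) had a DA-specific region.

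Short sequence words of factor families were searched, on either strand, within the middle 200 bp of each region. The words were searched independently, so that overlapping matches count under each, and a match describes the letters alone. The NFI word TTGGCA was present in 18.7% of members (17.2 to 20.3), 13.1% of DA-specific regions, 7.44% of regions kept in all 5 libraries and 13.4% of all regions. The SOX word ACAAAG was present in 22.3% (20.7 to 24), 15.9%, 10.9% and 17.5%, and the SOX word ACAATG in 13.9% (12.6 to 15.4), 9.10%, 5.40% and 10.5%, in the same order. Within classes of GC content, the Mantel-Haenszel odds ratio of members against DA-specific regions was 1.84 for TTGGCA, 1.94 for ACAAAG and 2.19 for ACAATG, and against all other regions it was 1.65, 1.66 and 1.75. The octamer ATGCAAAT of POU factors was rarer, in 2.42% of members, 1.66% of DA-specific regions and 1.75% of all regions, with odds ratios of 2.14 and 1.93. NFI, SOX and POU words were thus more frequent in members than in either set.

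Other words were less frequent in members than in DA-specific regions. The OTX word TAATCC was present in 4.11% of members, 9.31% of DA-specific regions and 7.11% of all regions, with odds ratios within GC classes of 0.537 and 0.698. The nuclear receptor word AAGGTCA was present in 2.16%, 5.06% and 4.14%, with odds ratios of 0.473 and 0.602. The bHLH words CAGCTG and CAGATG were present in 18.4% and 15.7% of members, 23.9% and 21.9% of DA-specific regions, and 18.9% and 19.5% of all regions. Their odds ratios were 0.64 and 0.898 for CAGCTG and 0.729 and 0.837 for CAGATG. The forkhead word TGTTTNC was present in 15.5%, 23.5% and 19.7%, with odds ratios of 0.791 and 0.927. The core AGGGGGC of CTCF was present in 4.96%, 7.86% and 4.96%, with odds ratios of 0.376 and 0.732. The OTX, nuclear receptor, bHLH, forkhead and CTCF words were thus less frequent in members than in DA-specific regions, also within GC classes.

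The HOX-PBX, MEIS, GATA, LIM homeodomain and NK2 words were a little or clearly less frequent in members than in all regions. Within GC classes this direction turned for all of them except the NK2 word. The HOX-PBX word TGATNNAT was present in 7.38% of members, 7.01% of DA-specific regions and 7.87% of all regions, with odds ratios of 1.51 and 1.28. The MEIS word TGACAG was present in 16.8%, 15.5% and 16.9%, the GATA word AGATAA in 7.85%, 10.2% and 9.21%, the LIM homeodomain word TAATTA in 5.94%, 7.43% and 6.38%, and the NK2 word TNAAGTG in 8.02%, 10.2% and 9.71%. The odds ratios within GC classes were 1.35 and 1.06 for TGACAG, 1.04 and 1.14 for AGATAA, 1.23 and 1.38 for TAATTA and 0.985 and 0.986 for TNAAGTG. Of the remaining words, the shares in members and all regions were 4.54% and 4.11% for the ETS word CCGGAA, 5.13% and 6.14% for the AP-1 word TGANTCA, 0.382% and 0.352% for the CRE word TGACGTCA and 0.551% and 0.619% for the ONECUT word ATCGAT. They were 8.95% and 7.27% for the EBF word CCCNNGGG, 9.71% and 8.83% for the RFX word GTTGCC and 11.3% and 11.1% for the TEAD word GGAATG. Within GC classes the direction against all other regions turned for CCGGAA, TGACGTCA and CCCNNGGG, with odds ratios of 0.739, 0.756 and 0.893. Of the 22 words, 13 had an odds ratio within GC classes above 1 against DA-specific regions and 10 against all other regions.

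Several words were more frequent in members with no DA score than in members scored in all 3 DA libraries. TTGGCA was present in 33.5% of these 185 regions and in 14.8% of the 1498 scored in every DA library. ACAATG was present in 27.0% against 9.41%, ACAAAG in 31.4% against 18.7% and TGATNNAT in 15.1% against 5.87%. The classes of members also differed in GC content and promoter share, as given above, and the part of these in the word shares was not tested.

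The central windows of members at serotonergic genes are shown because they are sites at these genes that the rule found, and each is from the plus strand of mm9. Capitals mark every match to the 22 words, and adjoining or overlapping matches run together.
Insm1 window chr2:146105131-146105330: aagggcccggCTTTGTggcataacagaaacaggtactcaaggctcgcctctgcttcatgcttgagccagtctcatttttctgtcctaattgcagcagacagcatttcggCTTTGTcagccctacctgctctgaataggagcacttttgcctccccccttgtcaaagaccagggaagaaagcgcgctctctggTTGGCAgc
Gata3 window chr2:9809411-9809610: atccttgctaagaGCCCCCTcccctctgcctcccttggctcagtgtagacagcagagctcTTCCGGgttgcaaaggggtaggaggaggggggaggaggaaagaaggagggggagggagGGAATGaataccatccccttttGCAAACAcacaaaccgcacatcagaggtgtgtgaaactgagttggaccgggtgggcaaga
Htr1b window chr9:81526633-81526832: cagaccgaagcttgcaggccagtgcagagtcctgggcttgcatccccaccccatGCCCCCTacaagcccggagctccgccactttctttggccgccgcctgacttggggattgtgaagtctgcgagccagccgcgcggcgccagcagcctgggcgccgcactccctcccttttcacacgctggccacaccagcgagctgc
Htr1a window chr13:106202179-106202378: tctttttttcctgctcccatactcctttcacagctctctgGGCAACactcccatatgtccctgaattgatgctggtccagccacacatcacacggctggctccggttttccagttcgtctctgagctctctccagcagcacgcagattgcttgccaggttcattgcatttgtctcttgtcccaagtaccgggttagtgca
Nkx2-2 window chr2:147006711-147006910: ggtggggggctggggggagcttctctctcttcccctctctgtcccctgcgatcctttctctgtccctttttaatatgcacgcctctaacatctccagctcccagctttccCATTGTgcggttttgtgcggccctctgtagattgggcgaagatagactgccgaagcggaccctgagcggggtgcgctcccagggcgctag
The Nkx2-2 window held a single SOX word, and the Insm1 window held 2 matches to ACAAAG and 1 to TTGGCA.

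The central windows of 4 of the 5 best-ranked members with no DA score are shown, that in Hars2 being left out, on the plus strand of mm9 and with the same capitals, because they are the members least open in DA neurons. The window near Actbl2 reaches beyond its region, which is 141 bp wide.
Zdhhc13 window chr7:56033626-56033825: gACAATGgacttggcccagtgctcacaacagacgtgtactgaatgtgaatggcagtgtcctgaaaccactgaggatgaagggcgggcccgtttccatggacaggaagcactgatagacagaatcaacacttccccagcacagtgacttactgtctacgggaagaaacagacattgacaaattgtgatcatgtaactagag
Prkaa1 window chr15:5088208-5088407: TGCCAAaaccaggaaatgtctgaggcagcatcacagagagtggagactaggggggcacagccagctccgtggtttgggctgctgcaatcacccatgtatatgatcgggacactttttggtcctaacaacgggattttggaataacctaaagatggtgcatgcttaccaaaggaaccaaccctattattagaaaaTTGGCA
Actbl2 window chr13:111693561-111693760: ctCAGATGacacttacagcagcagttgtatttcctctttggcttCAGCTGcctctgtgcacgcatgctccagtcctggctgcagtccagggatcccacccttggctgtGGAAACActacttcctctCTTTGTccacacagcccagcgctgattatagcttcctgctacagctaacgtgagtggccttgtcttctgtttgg
B3gat1 window chr9:26497511-26497710: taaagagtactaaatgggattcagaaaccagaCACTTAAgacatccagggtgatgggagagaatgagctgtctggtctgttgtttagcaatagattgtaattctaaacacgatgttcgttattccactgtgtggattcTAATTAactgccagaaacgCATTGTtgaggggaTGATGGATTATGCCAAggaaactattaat
A SOX word was present in the windows near Zdhhc13, Actbl2 and B3gat1, and TTGGCA in those near Prkaa1 and B3gat1.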

How the data were processed

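ATAC-seq peak maps of 3 DA and 2 5-HT libraries were analysed, and RNA-seq samples were not used here. By the methods of the authors, Trimmomatic trimmed the reads, Bowtie2 placed them on mm9, Picard took out duplicates, MACS2 called the peaks and BEDOPS merged neighbouring ones. Each deposited peak map gives a score per region, which was used as it stands. In 1 region the chromosome name was misspelled and was taken for chrY. Regions were ranked by score in each library, with ties in file order. Classes and genes came from GENCODE vM1 on NCBIM37 (mm9). Python 3.11.15, NumPy 2.4.6, pandas 2.3.3, SciPy 1.17.1, pysam 0.24.0 and BLAST+ 2.17.0 were used, and the code was tested on simulated data. Named were the 8 members with the best worse rank over both 5-HT libraries, the 8 best with no DA score, the 20 genes nearest to most members, the 20 best promoter members, listed genes with a member within 100 kb and the 5 densest 1 Mb windows. The members and lists were chosen with earlier results of these data known. Alternatives were other numbers of kept regions, tie order, merging, absence rules, left-out libraries, promoter definitions, annotations, windows and distances. No p-values were computed, as every library was used by the rule. Some items that the naming rule gave are not reported here.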

Additional observations from a re-analysis of the deposited data

How the results depend on the processing

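With 10000 regions kept in each library the members numbered 563, with a promoter share of 26.3%, an intergenic share of 30.7% and 1.07% without a DA score, and with 15000 kept these were 1096, 19.9%, 35.6% and 3.29%. With every scored region kept the values were 513, 2.92%, 49.3% and 100%, which last value follows from the rule. Requiring a score of 0 in all 3 DA libraries left 185 members, 2.16% at promoters, 48.6% intergenic and, by construction, 100% without a DA score. Judging absence on 45758 regions in each DA library left 648, 4.63%, 44.6% and 28.6%. Leaving out 1 library at a time gave counts from 2618 to 7679, promoter shares from 11.8% to 18.5%, intergenic shares from 35.6% to 40.9% and shares without a DA score from 7.11% to 27.9%. Fewer required libraries admit more regions by construction, and otherwise the cause was not tested. A promoter of 2 kb upstream to 500 bp downstream gave a promoter share of 25.4%, and protein-coding transcripts alone gave 12.3% and an intergenic share of 40.7%. The mean share of members with a word rose from 9.31% to 20.2% in the central 500 bp, since the window is longer. In this window the order of members and DA-specific regions turned for some words. The shares were 12.2% against 11.9% for AGGGGGC, 15.7% against 19.0% for TGATNNAT and 20.4% against 20.2% for GTTGCC. Listed genes with a member numbered 94 within 500 kb in place of 39, since the window is wider. Reversed tie order and merging within 100 bp, with 2367 merged members, kept every share inside its interval. Of the 563 members at 10000 regions, 102 were among the 2358, which is 18.1% and 4.33% of each list. No paired analysis was possible because the labels give no pairing between DA and 5-HT libraries. Read depth and the scale of the score are unknown, and 2 5-HT libraries limit how well a region can be called absent or present.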

Other observations

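Genes of SOX, NFI and GATA factors outside the naming rule were also nearest to several members, and they were chosen after their values were seen. Sox21, a neural progenitor factor gene, was nearest to 3 members of 10 regions and to no DA-specific region. Its promoter region chr14:118633770-118636674 scored 5.02, 5.88 and 5.17 in DA replicates 1 to 3, and 4.30 and 4.56 in the 5-HT libraries. The member 4.91 kb downstream of its TSS scored 4.45, 3.39 and 3.68 against 5.07 and 3.58, and that 10.0 kb downstream scored 0, 5.19 and 4.45 against 4.52 and 4.37. Raw scores at Sox21 overlapped between the groups, the promoter region being lower in both 5-HT libraries than in any DA library although it was kept in the 5-HT libraries alone.

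Nfib, a factor gene that binds the NFI word, was nearest to 3 members of 70 regions and to 1 DA-specific region. Gata6, of the GATA family, was nearest to 3 members of 64 regions and to no DA-specific region. Of the members nearest to Gata6, that at chr18:10941886-10942267 scored 3.69, 3.29 and 4.08 in the DA libraries and 5.41 and 4.27 in the 5-HT ones. That at chr18:10976296-10977140 scored 0, 4.04 and 3.88 against 5.22 and 4.25, and that at chr18:11052184-11053894 scored 5.28, 5.45 and 4.37 against 4.18 and 2.95. Both 5-HT scores were thus above every DA score at the first pair of regions and below every DA score at the other. These are raw scores, which share no known scale between libraries.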
